A study of Homo sapiens with 6 samples.

Results

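The peaks described here lie in the MYCN region on the short arm of chromosome 2, which is amplified in many neuroblastomas. They were taken from CUT&Tag peak lists of 3 transcription factors in SK-N-BE(2) cells, a long-established line of human neuroblastoma. A peak belongs to the MYCN window when its summit lies on chromosome 2 between 15440000 and 16450000 (hg38), a stretch of 1.01 Mb. Peaks enter it by summit position alone, whatever their fold, but the rule was chosen with earlier results of these data known. The window held 386 of the 118079 peaks in the 5 lists, and the other 9591 chromosome 2 peaks served for comparison. The 5 libraries were HAND2 replicates 1 and 2, MEIS2 replicates 1 and 2, and a single TCF4 library, so no TCF4 value has a replicate. All came from the same cells with no treatment named. A sixth library made with a non-specific IgG antibody was the control and has no peak list here. CUT&Tag brings a transposase to an antibody on the bound protein, which then cuts the DNA nearby and adds sequencing tags to it. Replicates of 1 factor are not labelled as separate cultures, and their spread may therefore be only technical.

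MYCN encodes a basic helix-loop-helix leucine zipper factor that pairs with MAX and drives growth and proliferation. Extra copies of the gene mark high-risk neuroblastoma, and the copies often carry neighbouring genes such as DDX1, an RNA helicase, and DNA downstream of MYCN that acts as its enhancers in these cells. HAND2 belongs to the same wider class of basic helix-loop-helix proteins and acts in sympathetic neurons and their precursors. TCF4 is an E protein, the kind of partner with which HAND2 pairs, and both contact E-boxes, written CANNTG. MEIS2 is a TALE homeodomain factor of a family that contacts the motif TGACAG.

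Sequences of 3 gene starts in the window are printed because they carry the contrasts described below. All 3 factors had a peak over the starts of MYCN and of LOC124908049, an uncharacterised RNA gene, and TCF4 alone had one at DDX1. Each stretch runs from 250 bases before to 50 bases after the annotated start, 5′ to 3′ on the plus strand, from RefSeq's GRCh38.p14 annotation. Capitals mark matches on either strand to CANNTG, to TGACAG and to its shorter form TGTCA, of which TGACAG contains the reverse complement.
MYCN (chr2:15940300-15940599): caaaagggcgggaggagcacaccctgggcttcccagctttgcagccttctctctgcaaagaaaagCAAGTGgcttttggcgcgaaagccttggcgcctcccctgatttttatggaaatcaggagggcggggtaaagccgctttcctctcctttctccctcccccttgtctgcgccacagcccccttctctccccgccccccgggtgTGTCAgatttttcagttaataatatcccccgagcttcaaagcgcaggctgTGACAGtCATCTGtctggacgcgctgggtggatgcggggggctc
LOC124908049 (chr2:16202060-16202359): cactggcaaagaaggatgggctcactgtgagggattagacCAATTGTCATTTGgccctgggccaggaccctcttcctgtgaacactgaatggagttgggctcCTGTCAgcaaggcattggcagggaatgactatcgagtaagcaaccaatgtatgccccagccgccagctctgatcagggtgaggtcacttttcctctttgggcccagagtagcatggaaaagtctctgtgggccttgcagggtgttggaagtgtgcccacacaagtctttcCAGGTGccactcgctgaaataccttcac
DDX1 (chr2:15591618-15591917): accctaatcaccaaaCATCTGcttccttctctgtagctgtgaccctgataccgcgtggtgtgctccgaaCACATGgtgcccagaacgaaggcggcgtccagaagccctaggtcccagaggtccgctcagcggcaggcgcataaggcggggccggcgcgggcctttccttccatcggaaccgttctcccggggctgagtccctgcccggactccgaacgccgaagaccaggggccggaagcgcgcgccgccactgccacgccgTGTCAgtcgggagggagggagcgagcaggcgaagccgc
The MYCN stretch held 2 matches to CANNTG, at -185 and 13 from the start. It also held TGTCA at -44 and TGACAG at 6, and a single base separates the TGACAG from the second E-box. The LOC124908049 stretch held 3 matches to CANNTG, at -210, -203 and 22, TGTCA at -206, and 1 match to TGACAG on the other strand at -148. The DDX1 stretch held 2 matches to CANNTG, at -235 and -181, and TGTCA at 12, but no TGACAG. The start of GACAT3, a long noncoding RNA gene with HAND2 and MEIS2 peaks, held no match to any of these motifs. Such matches are common. Of 35116 RefSeq promoters of 300 bases, 68.7% held CANNTG, 15.8% held TGACAG and 38.9% held TGTCA on either strand. A match is a description of the letters and shows no binding. No genome sequence was used, so the bases under summits away from gene starts are not given.

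At MYCN itself (chromosome 2, 15940550 to 15947004, plus strand), HAND2, MEIS2 replicate 1 and TCF4 each had a broad peak across the gene start, and MEIS2 replicate 2 had none. The HAND2 replicate 1 peak ran from 15938881 to 15942456 with a fold of 1.94 (95% counting interval 1.88 to 2.00), where fold is the authors' value for summit pile-up over control background. Its summit had a pile-up of 3833 fragments over a background of 2504 IgG fragments. HAND2 replicate 2 had a fold of 1.89 (1.84 to 1.95) with a pile-up of 4341. These were low folds within their own lists, at ranks 2696 of 2767 and 2799 of 2890 on chromosome 2. By −log10 q, which grows with the number of fragments, the same peaks ranked 45 and 52. MEIS2 replicate 1 had a fold of 2.94 (2.81 to 3.08) with a pile-up of 1928. TCF4 had a fold of 4.13 (4.04 to 4.23) with a pile-up of 8043, at rank 1224 of 2022 by fold and 5 by −log10 q.

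The summits of both HAND2 libraries and of MEIS2 replicate 1 were at the same base, 15940242, which lies at -308 from the MYCN start, before the printed stretch. In each of these lists that base had the highest IgG background of any summit in the window, 2462 to 2641 fragments. The part of that background in the shared summit was not tested. The TCF4 summit was at 15940604, 54 bases inside the gene and just past the end of the printed stretch. The start of MYCN overlaps MYCNOS, an antisense RNA gene on the minus strand, so that a peak here cannot be assigned to one of the genes. HAND2 replicate 1 had a second peak in MYCN with a fold of 3.0 (2.88 to 3.14) at 15943563, and a further peak past the gene end with a fold of 1.80 at 15948217. Near the gene end, HAND2 replicate 2 had a weak peak with a fold of 1.33 and TCF4 one with a fold of 1.26. For MEIS2 replicate 2 the nearest peaks were at 15749861 to 15750603 below MYCN and 15973400 to 15973841 above it, 189947 and 26396 bases from the gene. MEIS2 replicate 2 also differs from replicate 1 in its identifiers: all 13876 of its peak identifiers carry the word Flag, and 0 of replicate 1 do, although the labels give both the same antibody.

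**Figure D1:**
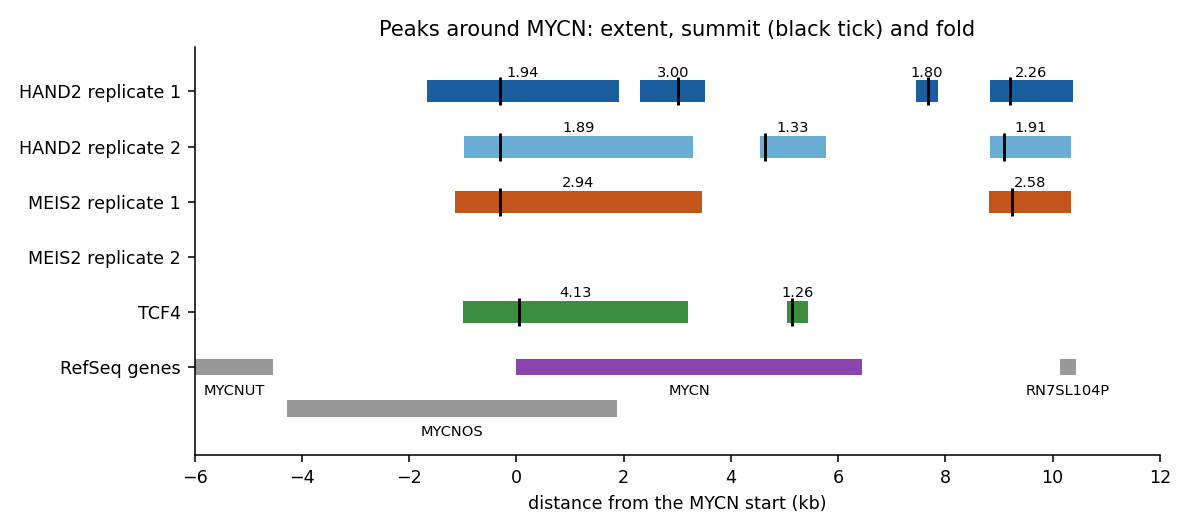
Peaks around MYCN. The x axis is the distance from the MYCN start in kb, each row is a library, bars are peak extents, black ticks are summits and the printed number is the fold, with RefSeq genes at the bottom. The 4 libraries with a peak at the start overlap there, the summits of HAND2 and MEIS2 replicate 1 fall at -308 bases, and MEIS2 replicate 2 has no peak in view.

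The peaks were placed almost wholly on one side of MYCN. Of the 386 summits, 367 lay above the gene, 4 in it and 15 below it. HAND2 replicates 1 and 2 had 108 and 92 summits above MYCN, MEIS2 replicates 1 and 2 had 69 and 78, and TCF4 had 20. Inside a protein-coding gene lay 5 summits, and 85 fell inside any annotated gene. The protein-coding genes that reach into the window are NBAS, DDX1 and MYCN. Summits inside genes were not counted on other chromosome 2. GACAT3 held 10 and 8 HAND2 summits, 4 and 5 MEIS2 summits and 0 TCF4 summits. LOC107985855, an uncharacterised RNA gene at 16354992 to 16432999, held 9 and 7 HAND2 summits, 8 and 18 MEIS2 summits and 2 TCF4 summits. The table of genes used here gives gene ends but no exons, so exon, intron and UTR are not stated.

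The other annotated genes of the window had few peaks. DDX1 had 1 peak, at its start in TCF4, with a fold of 3.99 (3.33 to 4.75). The summit of this peak lay 135 bases inside the gene, past the end of the printed stretch. That peak also covers the start of LOC124905975 on the other strand. NBAS, a gene of vesicle trafficking whose start lies in the window, had no summit there in any list. MYCNUT, an RNA gene upstream of MYCN, had 1 peak, in HAND2 replicate 1, with a fold of 3.07 (1.91 to 4.71) from a pile-up of 19. At the start of GACAT3 the HAND2 peaks nearest to it had folds of 2.44 and 1.66, and those of MEIS2 1.83 and 1.66. At the start of LOC124908049 folds were 6.05 and 5.86 in the HAND2 lists, 6.81 and 1.89 in the MEIS2 lists and 4.48 in TCF4. Both HAND2 summits there were at 16202210, at -100 from the start and inside the printed stretch. No summit lay in LOC105373440, LINC01804, LOC124905976, RNU5E-7P, RPLP1P5, LOC124906147, RN7SL104P or LOC124900535.

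Summits near a protein-coding gene end (1 kb or less) numbered 1 and 1 in the HAND2 lists, 1 and 0 in the MEIS2 lists and 2 in TCF4. As shares these were 0.877 and 1.04% in the HAND2 lists, 1.43 and 0% in the MEIS2 lists and 7.41% in TCF4. On the rest of chromosome 2 the shares were 8.37 and 10.7% in the HAND2 lists, 15.5 and 1.96% in the MEIS2 lists and 31% in TCF4. The zero for MEIS2 replicate 2 allows a share of up to 4.56% (exact 95% binomial interval). The shares take no account of how many protein-coding gene ends lie in the window, which holds those of DDX1 and MYCN and the start of NBAS.

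**Figure D2:**
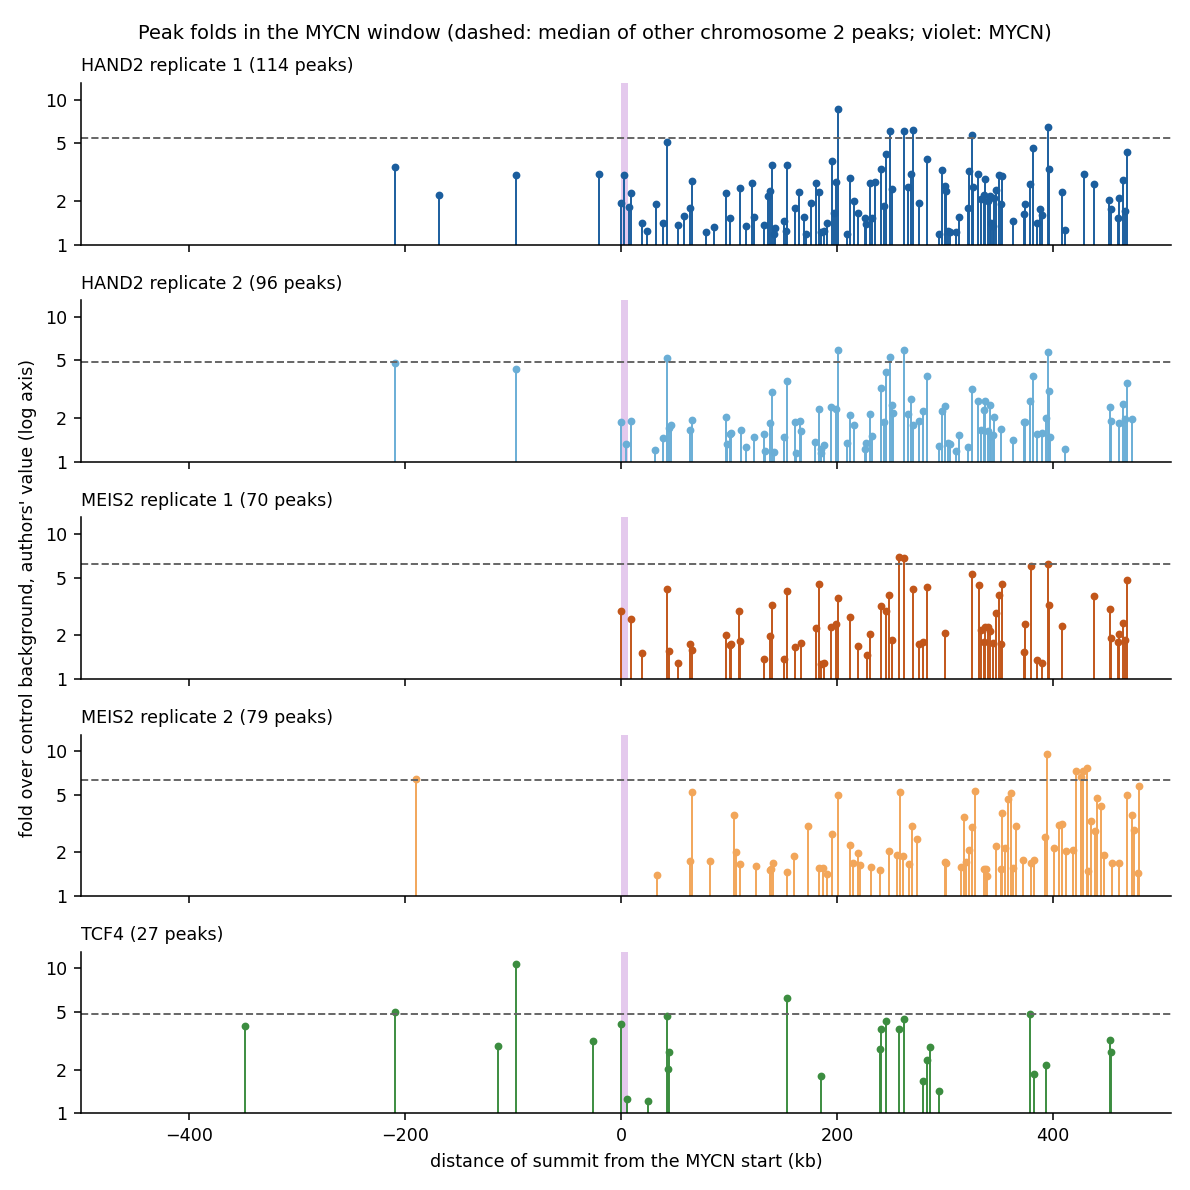
Folds of the 386 peaks along the window. The x axis is the distance of the summit from the MYCN start in kb, the y axis is the authors' fold on a log axis, each panel is a library, the dashed line is the median fold of its other chromosome 2 peaks and the violet band is MYCN. Most peaks lie above MYCN and below the dashed line, and it is passed by 6 and 5 peaks in the HAND2 panels, by 3 and 6 in the MEIS2 panels and by 3 in TCF4. Of the 6 in HAND2 replicate 1, 4 overlap a peak that also passes it in replicate 2.

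The control background set the MYCN window apart from the rest of chromosome 2, above all from MYCN onwards. The background at a summit is given in IgG fragments, read from the fold and p of each peak, and is a local level and not a direct count. The 12 peaks with summits from 15592003 to 15920452 had 6.98 to 65.02 IgG fragments. Their medians were 30.3 in 4 HAND2 replicate 1 peaks, 41.5 in 2 HAND2 replicate 2 peaks and 35.01 in 5 TCF4 peaks. On other chromosome 2 the medians were 7.0, 9.0 and 17.7 in the same order. The 1 MEIS2 replicate 2 peak had 9.11 against a median of 2.08, which is also the lowest background of its other chromosome 2 peaks. The other 374 summits, from 15940242 to 16420373, had 62.0 to 2641, and 363 of them had 100 or more. Outside the window, 17 of 9591 chromosome 2 peaks (0.177%) reached 100, and the highest had 194. The step lies between the summit in MYCNUT and the peaks across the MYCN start. Within the window the control background reached 100 fragments or more only at summits from MYCN to 16419074. At the single DDX1 peak it was 39.01 IgG fragments, and NBAS had no peak from which to read it. The lists hold no copy numbers, and whether copy number sets this background was not tested.

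Median background in the window and on other chromosome 2 was 486 against 7.0 IgG fragments for HAND2 replicate 1 and 538 against 9.0 for HAND2 replicate 2. It was 502 against 10.01 for MEIS2 replicate 1, 299 against 2.08 for MEIS2 replicate 2, and 1292 against 17.7 for TCF4. For MEIS2 replicate 2 the lowest, first-quartile and median backgrounds on other chromosome 2 were all 2.08, the floor of these values. Its log2 ratio of 7.17, the highest of the 5, is therefore set against a floor, and without this library the mean was 5.96. The mean log2 ratio was 6.20 (SD 0.58, n = 5 libraries), higher in 5 of 5. All 5 lists draw on the same IgG control, so these are 5 readings of 1 library and not independent measurements.

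**Figure D3:**
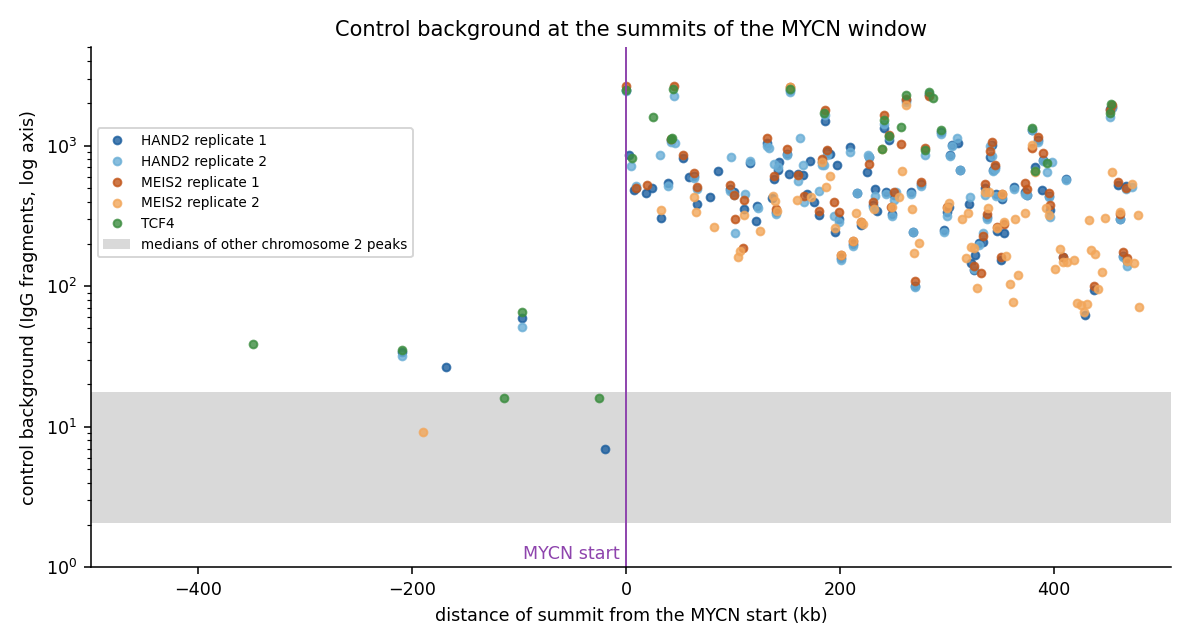
Control background at the 386 summits. The x axis is the distance from the MYCN start in kb, the y axis is the background in IgG fragments on a log axis, points are peaks coloured by library and the grey band spans the medians of other chromosome 2 peaks in the 5 lists. The 12 peaks away from MYCN on its left lie at 6.98 to 65.02 fragments, and 363 of the 374 peaks from MYCN onwards lie at 100 or more.

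Peaks were dense in the window and their folds were low. HAND2 replicates 1 and 2 had 113 and 95.05 peaks per Mb in the window, against 11.0 and 11.6 on other chromosome 2. MEIS2 replicates 1 and 2 had 69.3 and 78.2 against 3.20 and 5.73. TCF4 had 26.7 against 8.29, so it was the list with the smallest gain. The mean log2 ratio of densities was 3.26 (SD 1.02, n = 5), higher in 5 of 5 libraries.

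The median fold was lower in the window in every list. It was 2.07 in the window against 5.40 elsewhere for HAND2 replicate 1 and 1.88 against 4.87 for HAND2 replicate 2. For MEIS2 it was 2.21 against 6.21 in replicate 1 and 2.04 against 6.31 in replicate 2, and for TCF4 2.90 against 4.86. The mean log2 ratio was -1.32 (SD 0.34, n = 5). Peaks with a fold under 2 numbered 55 of 114 and 58 of 96 in the HAND2 lists, 29 of 70 and 38 of 79 in the MEIS2 lists and 6 of 27 in TCF4. Elsewhere on chromosome 2 such peaks made up 0.98 and 2.15% in the HAND2 lists, 0 and 0% in the MEIS2 lists and 0.802% in TCF4. The lowest folds in the MEIS2 lists were 2.20 and 2.45 elsewhere and 1.26 and 1.37 in the window. Since −log10 q grows with the number of fragments, a low fold enters a list more readily where fragments are many. The part of this limit in the low folds of the window was not tested. Median pile-ups were 726.5 and 917 fragments for HAND2 in the window against 37 and 45 elsewhere, 257.5 and 211 for MEIS2 against 22 and 12, and 2430 for TCF4 against 72.

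For each of the 5 comparisons of the window with other chromosome 2 (background, density, fold, overlap between factors and summit distance between factors), an exact two-sided sign-flip permutation test over the libraries gave p = 0.0625, and 0.0625 after Benjamini-Hochberg adjustment over the 5. That is the smallest p that 5 libraries allow, so no comparison could reach 0.05. The test takes the libraries as independent, but replicates may be only technical and all lists draw on the same IgG control.

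**Figure D4:**
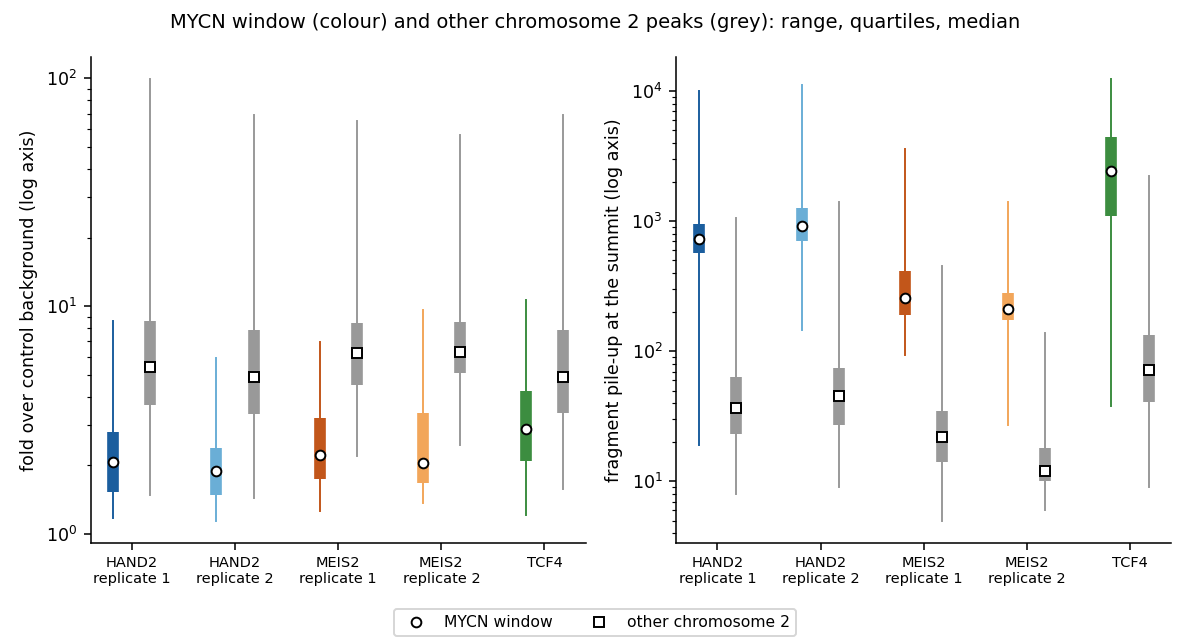
Folds (left) and summit pile-ups (right) in the MYCN window, in colour, and on other chromosome 2, in grey, for each library on log axes. Thin lines are ranges, thick bars are quartiles and symbols are medians. In every library the median fold is lower and the median pile-up is higher in the window, as with 2.07 against 5.40 and 726.5 against 37 in HAND2 replicate 1.

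The strongest HAND2 peak of the window by fold lay at 16141513, 200963 bases above the MYCN start. Its fold was 8.63 (8.12 to 9.16) in replicate 1, and replicate 2 had its own highest fold of 5.91 (5.52 to 6.33) at 16141489. Both MEIS2 libraries had a summit at 16141513 as well, with folds of 3.63 and 4.99. TCF4 had no peak there. The background was low for the window, at 153 to 167 IgG fragments. The other folds among the 5 highest were 6.03 to 6.47 in replicate 1 and 5.17 to 5.86 in replicate 2. Besides this peak, both lists had those at 16202210 and 16189433 and at 16335844 and 16335852 among their 5 highest. The remaining peak of the 5 differed: replicate 1 had 6.15 (5.62 to 6.72) at 16210841, where replicate 2 had 1.79 (1.53 to 2.08) at 16210881, and replicate 2 had 5.17 at 15982570, where replicate 1 had 5.06.

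MEIS2 replicate 1 was highest at 16197929 with a fold of 6.97 (6.65 to 7.30), followed by 16202153 with 6.81, 16335831 with 6.23, 16320064 with 5.98 and 16265280 with 5.33. MEIS2 replicate 2 was highest at 16335417 with 9.59 (9.04 to 10.2). Its next 4 folds, 6.66 to 7.67, all came from neighbouring peaks within LOC107985855, from 16361222 to 16372448. Of these 4 peaks, 1 overlapped a peak of another factor. No HAND2, MEIS2 replicate 1 or TCF4 peak in LOC107985855 was among the 5 highest of its list.

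TCF4 was highest at 15843058, in the low-background stretch below MYCN, with a fold of 10.7 (9.79 to 11.6) and a pile-up of 553 over 65.02 IgG fragments. Both HAND2 lists had a peak at the same place, with folds of 3.03 and 4.37, and neither MEIS2 list did. The next TCF4 fold, 6.21 (6.10 to 6.32), was at 16094118 with a pile-up of 12336. At 15730744, also below MYCN, TCF4 had a fold of 5.03 beside HAND2 folds of 3.41 and 4.77. The remaining TCF4 folds among the 5 highest were 4.86 at 16319597 and 4.72 at 15982563. TCF4 had 5 of its 27 peaks below MYCN's high-background stretch, against 4 and 2 for HAND2 and 0 and 1 for MEIS2.

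By fold, no window peak stood near the top of its chromosome 2 list. The best ranks were 657 of 2767 and 1079 of 2890 in the HAND2 lists, 308 of 840 and 274 of 1458 in the MEIS2 lists and 278 of 2022 in TCF4. By −log10 q the first peak of chromosome 2 lay in the window in all 5 lists: at 16202210 for both HAND2 libraries, 16202153 for MEIS2 replicate 1, 16335417 for MEIS2 replicate 2 and 16094118 for TCF4. For scale, the highest chromosome 2 fold outside the window was 98.9 for HAND2 replicate 1, in ALK, and 68.9 for replicate 2, in TRPM8. ALK encodes a receptor tyrosine kinase mutated in some neuroblastomas, and it held 83 and 65 HAND2 summits, 14 and 25 MEIS2 summits and 13 TCF4 summits over its long body. MEIS2 replicate 1 reached 65.2 in LOC107985845, MEIS2 replicate 2 56.3 in ALK, and TCF4 68.8 in ATOH8. These places had 2.09 to 40.01 IgG fragments.

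Peaks that overlapped by at least 1 bp were joined into 144 places. All 3 factors had peaks in 12 of them, at least 2 factors in 71 and all 5 libraries in 6. Places were joined in the window only. These counts have no share on other chromosome 2 beside them and do not show more or less sharing than elsewhere. The most frequent class was HAND2 with MEIS2, at 55 places, followed by HAND2 alone at 35 and MEIS2 alone at 34. HAND2 with TCF4 made up 4 places and TCF4 alone 4. Of the 56 places with a single library, 33 came from MEIS2 replicate 2, 15 from HAND2 replicate 1, 4 from TCF4, 3 from HAND2 replicate 2 and 1 from MEIS2 replicate 1. The count of 3-factor places rests on single libraries: it was 7 without MEIS2 replicate 1 and, since no other library covers its factor, 0 without TCF4.

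The summit shared by all 5 libraries lay 153568 bases above the MYCN start. In the place at 16093247 to 16096127, outside any annotated gene, the summits of all 5 libraries were at the single base 16094118. Folds were 3.53 and 3.60 in the HAND2 lists, 4.01 and 1.48 in the MEIS2 lists and 6.21 in TCF4. Pile-ups were 6903 and 8096, 2607 and 1410, and 12336 in the same order of libraries. The IgG background at this base was 2416 to 2622 fragments, close to the highest of the window, and its part in the shared summit was not tested.

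The place at 16194604 to 16205248 spanned LOC105373443 and LOC124908049, and all 5 libraries had peaks in it. Its highest folds were 6.05 and 5.86 in the HAND2 lists, 6.97 and 5.26 in the MEIS2 lists and 4.48 in TCF4. The pile-ups of 10049 and 11096 at the HAND2 summits were the highest of those lists in the window. The place at 16334029 to 16337936 had folds of 6.47 and 5.67 in the HAND2 lists, 6.23 and 9.59 in the MEIS2 lists and 2.14 in TCF4. The TCF4 fold was below its window median of 2.90 at the place where MEIS2 replicate 2 had its highest fold. The TCF4 summit, 16334264, lay apart from the strongest HAND2 and MEIS2 summits at 16335417 to 16335852, and beside the summit of a weaker HAND2 replicate 2 peak at 16334272 with a fold of 2.00.

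The other 3 places with all 5 libraries were at 16178520 to 16182197, 16316006 to 16323266 and 16393838 to 16396135. Their highest folds were 3.31, 4.62 and 1.76 in HAND2 replicate 1, and 3.83, 4.86 and 2.66 in TCF4. The MEIS2 replicate 2 folds there were 1.52, 1.77 and 1.69, all under 2. The remaining 6 places of 3 factors lacked MEIS2 replicate 2. One was the MYCN start. The others began at 15981440, 16125596, 16185061, 16217283 and 16392087. The place at 15981440 to 15987020 had folds of 5.06 and 5.17 for HAND2, 4.16 for MEIS2 replicate 1 and 4.72 for TCF4, with 3 of these summits at 15982563 and the HAND2 replicate 2 summit at 15982570. The place at 16125596 was the weakest, with a fold of 1.82 in TCF4 and 1.21 or 1.26 in HAND2 replicate 1 and MEIS2 replicate 1.

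**Figure D5:**
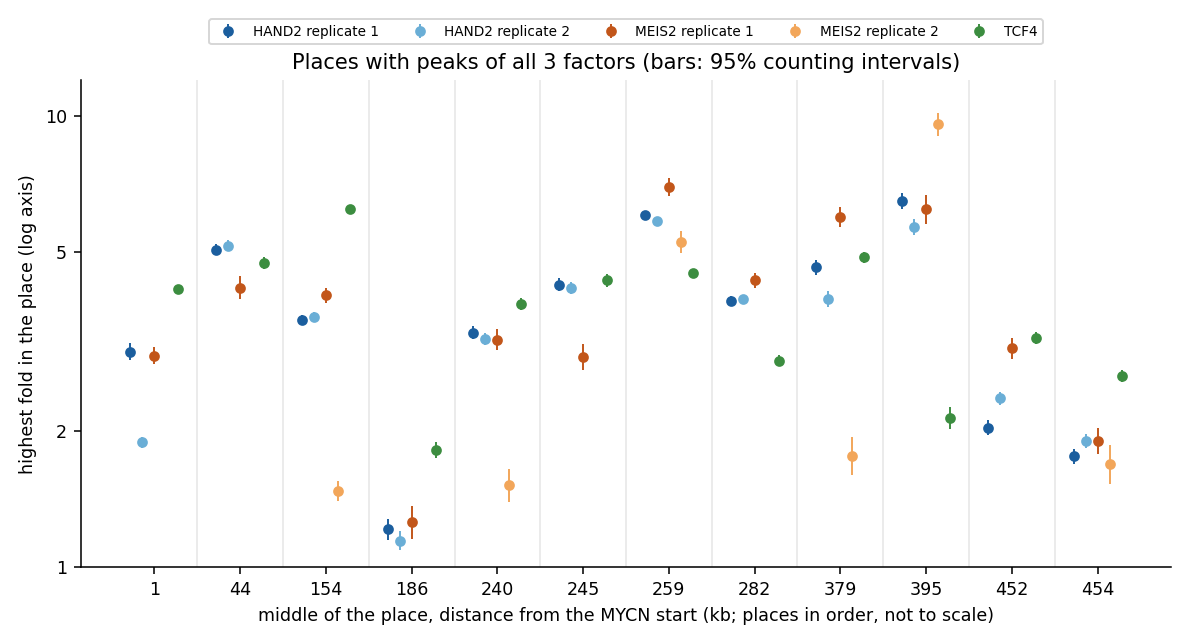
The 12 places with peaks of all 3 factors. The x axis gives the middle of each place as distance from the MYCN start in kb, in order and not to scale, the y axis is the highest fold of each library in the place on a log axis, and bars are 95% counting intervals. MEIS2 replicate 2 has a point in 6 places and lies at 9.59 in 1 of them, against 1.48 to 5.26 in the other 5.

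Peaks of different factors overlapped more often in the window than on other chromosome 2. Of HAND2 replicate 1 peaks, 82 of 114 were overlapped by a MEIS2 or TCF4 peak (71.9%, exact 95% binomial interval 62.7 to 79.9%), against 55.4% elsewhere. The share was 74.0% against 57.2% for HAND2 replicate 2. It was 98.6% against 93% for MEIS2 replicate 1, 58.2% against 36.8% for MEIS2 replicate 2, and 85.2% against 62.8% for TCF4. The mean difference was 16.5 percentage points (SD 6.69), higher in 5 of 5 libraries. It was 26.8 points without TCF4 and 10.9 without MEIS2 replicate 1. Without MEIS2 replicate 1 or HAND2 replicate 1, 3 of 4 libraries were higher. Peaks also cover more of the window: 138 and 103 kb in the HAND2 lists, 87.5 and 114 kb in the MEIS2 lists and 27.2 kb in TCF4, of 1010 kb. On the rest of chromosome 2 they cover 2516, 2535, 637, 1101 and 2105 kb in the same order, of 241 Mb. An overlap counted from one list is the same overlap counted from the other, so the 5 differences are not independent.

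The gain was not the same for every pair. HAND2 replicate 1 peaks were overlapped by MEIS2 replicate 1 at 58.8% in the window against 24.3% elsewhere, and by TCF4 at 14.9% against 37.2%. For HAND2 replicate 2 the share overlapped by TCF4 was 19.8% against 43.3%. MEIS2 replicate 1 peaks were overlapped by TCF4 at 21.4% against 60.3%. Seen from the shorter TCF4 list the shares were higher in the window: 81.5% against 49% of TCF4 peaks were overlapped by HAND2 replicate 1, and 70.4% against 22.7% by MEIS2 replicate 1. TCF4 had 27 peaks in the window beside 114 and 96 for HAND2. Shares of the longer and of the shorter list differed in direction for these pairs, and the part of list length in this was not tested.

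Summits were also closer. A summit of another factor lay within 100 bp for 53.5 and 56.3% of HAND2 peaks in the window, against 32.1 and 33.9% elsewhere. The shares were 87.1% against 64.3% for MEIS2 replicate 1, 15.2% against 13.1% for MEIS2 replicate 2 and 55.6% against 41.3% for TCF4. The mean difference was 16.6 points (SD 8.84), higher in 5 of 5 libraries. It rests on MEIS2 replicate 1: without that library it was 0.63 points, with 2 of 4 libraries higher (exact permutation p = 0.875, where the smallest possible is 0.125).

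Summits at exactly the same base were frequent. In the window, 32 bases were the summit in 2 libraries, 10 in 3 libraries and 1 in all 5, while elsewhere on chromosome 2 the counts were 244 bases in 2 libraries, 11 in 3 and 2 in 4. A summit of another factor at the same base was found for 16 of 114 and 17 of 96 HAND2 peaks, 22 of 70 and 6 of 79 MEIS2 peaks and 8 of 27 TCF4 peaks. Elsewhere the shares were 2.19 and 2.51%, 5.45 and 0.508%, and 4.51%. The median IgG background at such summits was 497 and 1148 fragments for HAND2, against 478 and 504 at their other summits in the window. It was 907 against 455 for MEIS2 replicate 1, 375 against 298 for MEIS2 replicate 2 and 1199 against 1346 for TCF4. The background was higher at same-base summits in 4 of 5 lists. Median pile-ups were higher there in all 5 lists. They were 900 against 708.5 and 1531 against 906 for HAND2 replicates 1 and 2. For MEIS2 replicates 1 and 2 they were 345.5 against 222 and 276 against 210, and for TCF4 3074.5 against 2430. The part of the shared control or of the higher pile-ups in these coincidences was not tested.

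The HAND2 replicates resembled each other in the window. HAND2 replicate 2 peaks were overlapped by replicate 1 at 94.8% in the window (88.3 to 98.3%) and 75.2% elsewhere, and replicate 1 peaks by replicate 2 at 71.9% (62.7 to 79.9%) and 77.9%. Over the 72 places that held both, the ranks of their folds had a Spearman correlation of 0.91 and the median distance between their strongest summits was 14.5 bp. MEIS2 replicate 1 was overlapped by replicate 2 at 54.3% (41.9 to 66.3%) in the window and 30.1% elsewhere, and replicate 2 by replicate 1 at 44.3% (33.1 to 55.9%) and 16.8%. Over 30 shared places the MEIS2 correlation was 0.32 and the median distance 423 bp. Between HAND2 replicate 1 and MEIS2 replicate 1 the correlation over 57 places was 0.87 and the distance 34 bp. The shared IgG background enters every fold, so these correlations are descriptions without a test. MEIS2 replicate 1 peaks were overlapped by HAND2 replicate 1 at 98.6% in the window and 84.9% elsewhere.

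The limits of the window fell in stretches with few peaks. The lowest summits inside were at 15730743 and 15730744 in the HAND2 lists, 15940242 and 15750286 in the MEIS2 lists and 15592003 in TCF4. Just below the window, HAND2 replicates 1 and 2 and MEIS2 replicate 1 had summits at the same base, 15383835, with folds of 20.8, 21.9 and 7.25 over 1.91 to 2.09 IgG fragments. The highest summits inside were at 16409097 and 16413397 in the HAND2 lists, 16409090 and 16420373 in the MEIS2 lists and 16394255 in TCF4, with folds of 4.35, 1.98, 4.80, 5.79 and 2.66. Above the window the next summits were at 16664598 and 16636365 in the HAND2 lists, 18991901 and 16843210 in the MEIS2 lists and 16664591 in TCF4. Those peaks had 2.08 to 20.01 IgG fragments.

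Genes further out on the same chromosome arm and partners of MYCN were examined from lists of genes. A gene was counted only where the set of RefSeq promoters used here gave it a start. Of 10 flanking genes with an annotated start, TRIB2 and VSNL1 had a peak at the start in both HAND2 lists, TRIB2 in MEIS2 replicate 1, none in MEIS2 replicate 2, and TRIB2, VSNL1, SMC6, GEN1 and RDH14 in TCF4. TRIB2 is a pseudokinase and VSNL1 a neuronal calcium sensor. Over all 15842 protein-coding genes with a start, the share with a peak was 20.5 and 27.9% in the HAND2 lists, 11.7 and 2.04% in the MEIS2 lists and 55.6% in TCF4. Of 11 genes of the MAX network with a start, 6 and 8 had a HAND2 peak, 4 and 0 a MEIS2 peak and 10 a TCF4 peak. MXD1, MXI1 and MNT, which encode MAX-binding repressors, had one in HAND2, MEIS2 replicate 1 and TCF4 alike, and MAX in HAND2 and TCF4. Of 7 adrenergic core genes with a start (PHOX2A, HAND2, GATA2, GATA3, ISL1, MEIS2 and TCF4), all 7 had a peak in every list except MEIS2 replicate 2, which had 4. Of 5 adrenergic marker genes with a start, 5, 5, 5, 3 and 5 had a peak in the lists in order. Among these markers only DBH was not already counted with the core genes. No list had a peak at 2 mesenchymal and 3 other-tissue marker genes. Of 5 mesenchymal genes listed, only these 2 had a start in that set of promoters, too few to set against the shares over all genes.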

How the data were processed

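CUT&Tag libraries of HAND2, MEIS2 (2 each), TCF4 and IgG (1 each) were made from SK-N-BE(2) cells, and groups were taken from the antibody in the labels. The submitters' processing notes name bcl2fastq 2.17, Bowtie2, MACS3 3.0.0a6 and the build hg38. Their options and any removal of duplicates were not given in the sources used here. The deposited lists, called per library and not on pooled replicates, give each peak's fold, a ratio of summit pile-up over local control background, and its −log10 p and −log10 q. A deposited score and, in 3 lists, an added column were not used. Folds were compared within a list only.

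For each peak the whole pile-up x and background b were found for which (x + 1)/(b + 1) and the Poisson p matched the deposited fold and −log10 p within a relative tolerance of 5e-05. This succeeded for 100% of peaks in all 5 lists. In a test on 3846 simulated peaks every pile-up was recovered (100%), and 5.64% of pile-ups that were not whole were matched all the same. Dividing b by the background of 1 IgG fragment gave IgG fragments. The background of 1 fragment was fitted as a unit. Of low backgrounds above each list's lowest, 67.8 and 69.3% were whole multiples of it (within 0.03) in the HAND2 lists. The shares were 68.9 and 46.4% in the MEIS2 lists and 74.5% in TCF4. That unit, the depth relative to IgG, was 0.789 and 0.931 in the HAND2 lists, 0.248 and 0.368 in the MEIS2 lists and 0.784 in TCF4, so the MEIS2 libraries were the shallowest and a missing MEIS2 peak does not show absence of MEIS2. The lists hold no read totals. Their sizes were 30410, 33484, 9598, 13876 and 30711 peaks.

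Intervals are 95% exact Poisson (folds, background held fixed) or exact binomial (shares); they cover counting error only, since fragments may share a molecule. The window was compared with other chromosome 2 within each library, and the 5 log2 ratios or differences were tested by an exact sign-flip permutation test. Overlap means at least 1 bp, and a gene start has a peak where a peak reaches within 1 kb of it. Gene positions and promoters are RefSeq's for GRCh38.p14. Coordinates are 1-based. Alternatives left out each library, raised the −log10 q minimum to 5, kept only peaks within 10 Mb, or changed the overlap, summit distance or summary. Peaks named were those at MYCN, the 5 highest folds per library, places of all 3 factors or all 5 libraries, those nearest the limits, and the 3 highest folds outside per library, of which the first is printed. Members, lists and rules were chosen with earlier results of these data known. Python 3.11.15, pandas 2.3.3, scipy 1.17.1 and matplotlib 3.10.9 were used.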

Additional observations from a re-analysis of the deposited data

How the results depend on the processing

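The mean of each of the 5 comparisons of the window with other chromosome 2 kept its sign under every alternative run. The difference in summits within 100 bp had no common direction without MEIS2 replicate 1 (0.63 points, higher in 2 of 4 libraries), and overlap was higher in 3 of 4 libraries without MEIS2 replicate 1 or HAND2 replicate 1. Leaving out each library in turn, the mean log2 ratio of median folds was -1.47 to -1.25, that of backgrounds 5.96 to 6.34 and that of peak densities 2.96 to 3.65. The difference in overlapped peaks was 10.9 to 26.8 points and that in summits within 100 bp 0.63 to 24.2 points. Counts of places with at least 2 factors were 52 to 69, and of places with 3 factors 0 to 14. With 4 libraries the smallest possible exact p is 0.125. Requiring 50% overlap of both peaks gave 8 places of 3 factors and a difference of 11.3 points, higher in 4 of 5 libraries. Only peaks within 10 Mb as the comparison gave a log2 ratio of folds of -1.22. Of 2 alternatives chosen after seeing the data, starting the window just below MYCN gave a log2 ratio of folds of -1.35 and of densities of 4.14, and summits at the same base gave a difference of 17.0 points. No paired analysis was possible because replicate numbers would pair libraries across factors, and no test compares factors; the tests pair the window with the rest within each library. Peaks of very low background cannot fall below the floor of each list. MEIS2 had the shallowest libraries, and the part of depth in its peak numbers was not tested.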
